A study of Mus musculus with 2 samples.

Results

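A set of 10 genes of lipoprotein biology was followed across the immune cells of the mouse small intestine: the apolipoproteins Apoe, Apoc2, Apoa1, Apoa4 and Apob, the lipase Lpl, and the uptake receptors Lrp1, Vldlr, Msr1 and Scarb1. They were taken by symbol from the 32285 genes of both count matrices, and all 10 were found, each with a single row. The cells came from the lamina propria, the connective tissue beneath the gut epithelium. All mice carried the floxed Aster-A alleles (Aster-A F/F, here F/F), and those of the other group carried the CD4-Cre transgene as well (CD4-Cre; Aster-A F/F, here CD4-Cre), so the controls share the floxed alleles. Aster-A, the product of Gramd1a, is a sterol carrier between membranes, and CD4-Cre deletes floxed segments in developing T cells. Both groups were female littermates 10 to 12 weeks old, fasted for 16 h and given olive oil by gavage for 2 h. Live CD45+ cells free of EPCAM, Ter119 and CD31 were sorted, 100000 from every animal, and those of 3 animals with the same genotype went into 1 droplet library.

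Each genotype is therefore 1 sample. No difference between the libraries has a replicate check or a test, and the 95% intervals given cover counting error only, not the variation between mice. Values are unique molecular identifiers (UMIs), which count captured transcripts, or CPM, the UMIs of a gene scaled to the same total of UMIs in every class. The F/F library held 222838658 UMIs and the CD4-Cre library 200580083, of which 12594 and 12526 barcodes were kept as cells, with a median of 15319.5 and 14031 UMIs. The libraries shared 47 of these barcodes. Barcodes with 150 to 350 UMIs, 62471 and 62632 of them, served as the measure of free RNA, the transcripts that float in the cell suspension and enter every droplet. Gramd1a itself stood at 78.9 CPM (F/F) and 60.2 CPM (CD4-Cre) in CD4 T-like cells (93 and 109 UMIs, ratio 0.762, interval 0.573 to 1.02), and at 41.5 and 36.4 CPM in macrophage-like cells. The labels do not give the deleted segment, so a 3′ tag of Gramd1a is not a check of the deletion.

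Apolipoproteins are the protein coats of lipoproteins. Apob builds the chylomicrons that enterocytes send out after a fatty meal, with Apoa1 and Apoa4 on their surface. Apoc2 activates lipoprotein lipase (Lpl), which frees fatty acids from the particles, and Apoe binds the receptors that take up what remains. Of these receptors Lrp1 and Vldlr are related lipoprotein receptors, Msr1 is a scavenger receptor of macrophages for modified lipoproteins, and Scarb1 binds high-density lipoprotein. Macrophages are well known to secrete Apoe when they unload cholesterol.

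Apoe and Apoc2 lie in 1 gene cluster on chromosome 7, and the bases before the start sites of both are shown because their transcripts were found together in the same cells. In GENCODE M21 on GRCm38, Apoe spans 19696109 to 19699188 and Apoc2 19671579 to 19677941, both on the minus strand, with 18167 bases and the genes Apoc4 and Apoc1 between them. A readthrough gene, Gm44805, overlaps Apoc2 on the same strand, so the reads counted for Apoc2 cannot be told apart from it where they overlap. Gm44805 also runs across the whole Apoc2 stretch printed below. From position 19678083 upward that stretch lies within Apoc4. The 250 bases before each RefSeq start site (GRCm38.p6, minus strand, chr7:19699189-19699438 for Apoe and chr7:19677942-19678191 for Apoc2) read as follows, with GAGGAA in capitals in Apoe and AGGTCA in capitals in Apoc2.
Apoe: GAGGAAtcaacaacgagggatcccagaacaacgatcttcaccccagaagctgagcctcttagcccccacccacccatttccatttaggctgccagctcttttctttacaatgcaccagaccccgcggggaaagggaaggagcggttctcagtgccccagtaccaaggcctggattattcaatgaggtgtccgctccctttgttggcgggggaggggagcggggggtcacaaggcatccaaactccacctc
Apoc2: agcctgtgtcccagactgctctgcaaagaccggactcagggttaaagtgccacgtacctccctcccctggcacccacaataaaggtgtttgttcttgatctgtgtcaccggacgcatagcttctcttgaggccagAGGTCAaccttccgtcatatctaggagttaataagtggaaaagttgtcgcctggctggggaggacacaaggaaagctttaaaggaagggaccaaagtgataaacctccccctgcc
The capitals mark 6-letter runs that were chosen after the sequences were seen. GAGGAA is the start of the PU.1 motif GAGGAAGT, and in Apoe it lies at positions -250 to -245 from the start site. AGGTCA is the repeated unit of the LXR response element (a direct repeat of AGGTCA spaced by 4 bases), and in Apoc2 it lies at -115 to -110. On either strand, GAGGAA occurred in 23.3% and AGGTCA in 14.0% of the upstream parts of 32851 RefSeq promoter windows. Promoter windows of 300 bases (250 before to 50 after the start) were at hand for 7 of the 10 genes, 10 windows in all. None of them held, on either strand, the LXR response element (in 0.0152% of all windows), the sterol response element TCACNCCAC (1.24%) or GAGGAAGT (3.20%). TATAAA, present in 13.6% of all windows, was found in that of Apob and in an alternative window of Apoe. These are matches of letters and no more.

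Apoe was by far the most frequent of the 10 transcripts, with 57885 UMIs in F/F cells and 46139 in CD4-Cre cells. Scarb1 followed with 481 and 482, Msr1 with 432 and 324, Lrp1 with 331 and 299, Apoc2 with 310 and 523, and Lpl with 248 and 131. Apoa1 had 59 and 69 UMIs, Vldlr 4 and 7, Apoa4 3 and 0, and Apob 1 and 1. Thus 6 of the genes carry nearly all the data, and the chylomicron genes are close to the limit of detection in these sorted cells.

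**Figure D1:**
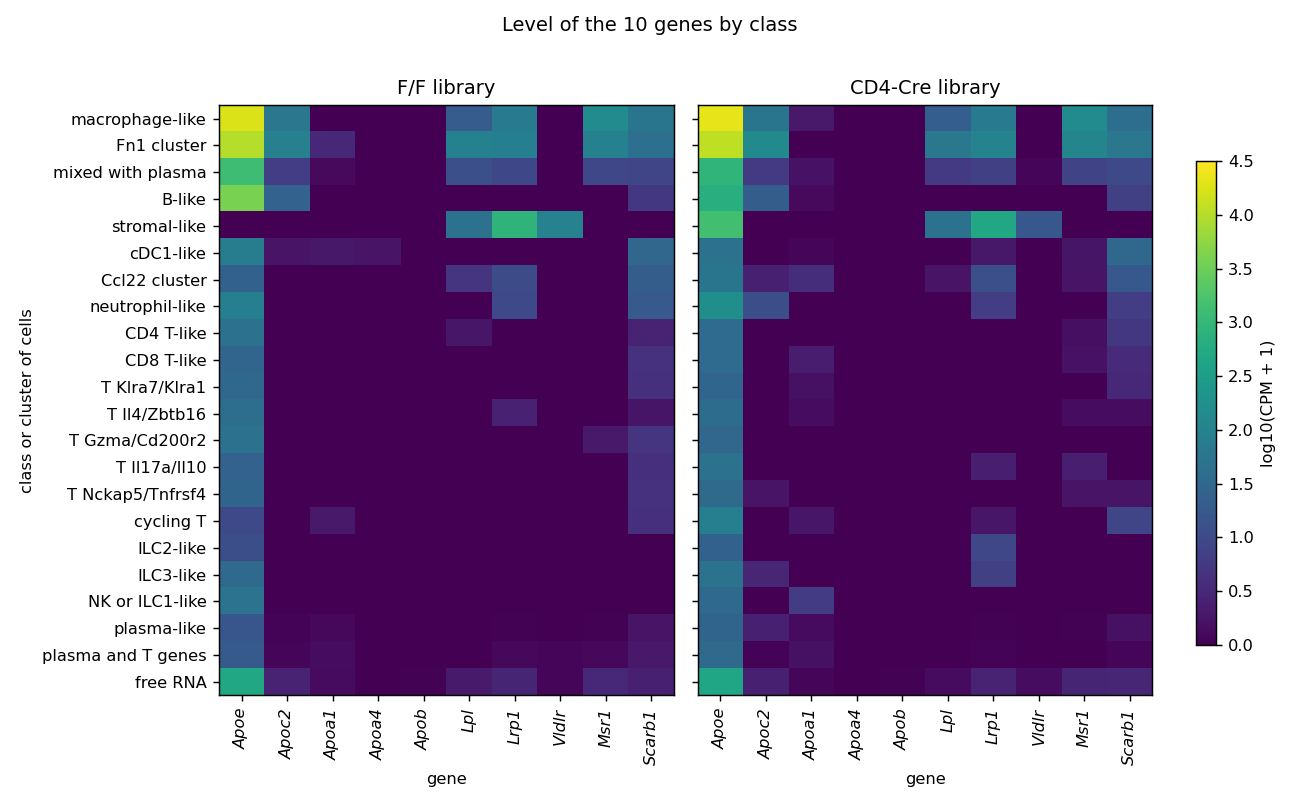
Level of each gene (columns) in each class or cluster of cells (rows) and in free RNA, as log10(CPM + 1) on the colour scale, for the F/F library on the left and the CD4-Cre library on the right. Apoe is high in the macrophage-like, Fn1 and B-like rows and in free RNA, Apoc2 and Msr1 are highest in the macrophage-like and Fn1 rows, and Lrp1 is highest in the stromal-like row.

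A class carries a name ending in -like where its cells held the markers of that class. Macrophage-like cells (351 in F/F, 210 in CD4-Cre) held all 12 markers of the macrophage list, among them C1qa, C1qb, C1qc and Csf1r. A cluster led by Plcb1, Fn1, Lyz2 and Ccl9 (204 and 179 cells), called the Fn1 cluster, held all 12 macrophage markers and also 6 of 10 monocyte markers, each in at least 20% of its cells, and was left without a cell type name. The summed macrophage list stood at 16698 and 18531 CPM in macrophage-like cells and at 17914 and 17790 CPM in the Fn1 cluster. The monocyte list stood at 5271 and 6307 CPM in the former and at 13332 and 15614 CPM in the latter.

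Apoe was highest in macrophage-like cells in both libraries. It reached 18156 CPM in F/F (interval 17947 to 18366) and 21599.8 CPM in CD4-Cre (21303 to 21900.1). A UMI of Apoe was present in all but 1 macrophage-like cell of each library, 350 of 351 (F/F) and 209 of 210 (CD4-Cre), and after each cell was thinned to 1500 UMIs in 99.7% and 99.4%. The median macrophage-like cell held 69 Apoe UMIs in F/F and 76 in CD4-Cre, with a highest value of 381 and 458. The transcript was thus a feature of nearly every macrophage-like cell and did not rest on a few. In the Fn1 cluster the level was lower in both libraries, at 9890.1 CPM (9727 to 10055) and 11624 CPM (11428 to 11822), with a median of 45 and 56 UMIs per cell and a UMI in 194 of 204 and 170 of 179 cells. The intervals of the Fn1 cluster and of the macrophage-like cells did not meet in either library.

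Free RNA held 7111 Apoe UMIs in F/F and 6152 in CD4-Cre, or 485 and 445 CPM. Macrophage-like cells were 37.5 and 48.5 times above it and the Fn1 cluster 20.4 and 26.1 times. These multiples depend on the barcodes taken as free RNA: those of 10 to 100 UMIs held 209 and 276 CPM of Apoe (284 and 410 UMIs), and against them macrophage-like cells were 86.8 and 78.2 times higher, with the order of the libraries turned. A set of 10 clusters of T cells and innate lymphoid cells, 1935 and 3196 cells together, lay well below both, at 11.2 to 50.1 CPM (F/F) and 23.7 to 48.2 CPM (CD4-Cre). Pooled, they held 37.3 and 35.6 CPM, or 0.0769 and 0.0800 of the free RNA level (0.178 and 0.129 of that in barcodes of 10 to 100 UMIs). The source of these UMIs was not tested. Plasma-like cells, the antibody-secreting cells that made up most of both libraries (8204 and 7315 cells), held 15.015 and 27.3 CPM.

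Apoe was also set beside the C1q genes, which are made by macrophages. There were 2.22 Apoe UMIs per UMI of C1qa, C1qb and C1qc in F/F macrophage-like cells (2.17 to 2.26) and 2.38 in CD4-Cre (2.32 to 2.44). The Fn1 cluster held 1.92 (1.86 to 1.97) and 2.78 (2.69 to 2.87). Free RNA held 2.80 (2.68 to 2.93) and 3.17 (3.01 to 3.34), above the macrophage-like cells and the Fn1 cluster of its own library. CD4 T-like cells held 2.85 (1.69 to 5.01) and 2.91 (1.79 to 4.90). These intervals include the values of free RNA, macrophage-like cells and the Fn1 cluster, and cannot tell them apart. Plasma-like cells held 3.09 (2.84 to 3.36) in F/F but 6.85 (6.26 to 7.51) in CD4-Cre. In the latter, 5 cells held 1546 of the 3712 Apoe UMIs beside 4 C1q UMIs, and without the 5 highest cells the values were 2.96 (2.72 to 3.23) and 4.03 (3.66 to 4.43). A cluster with plasma and pancreatic genes held 7.09 (5.58 to 9.12) in F/F, and 3.19 (2.45 to 4.20) without its 5 highest cells. B-like cells departed most, with 725 (310 to 2235) and 416 (178 to 1284) Apoe UMIs per C1q UMI, on 5 C1q UMIs in each library. Without the 5 highest cells the values were 258 (110 to 797) and 337 (131 to 1240), still far above free RNA.

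**Figure D2:**
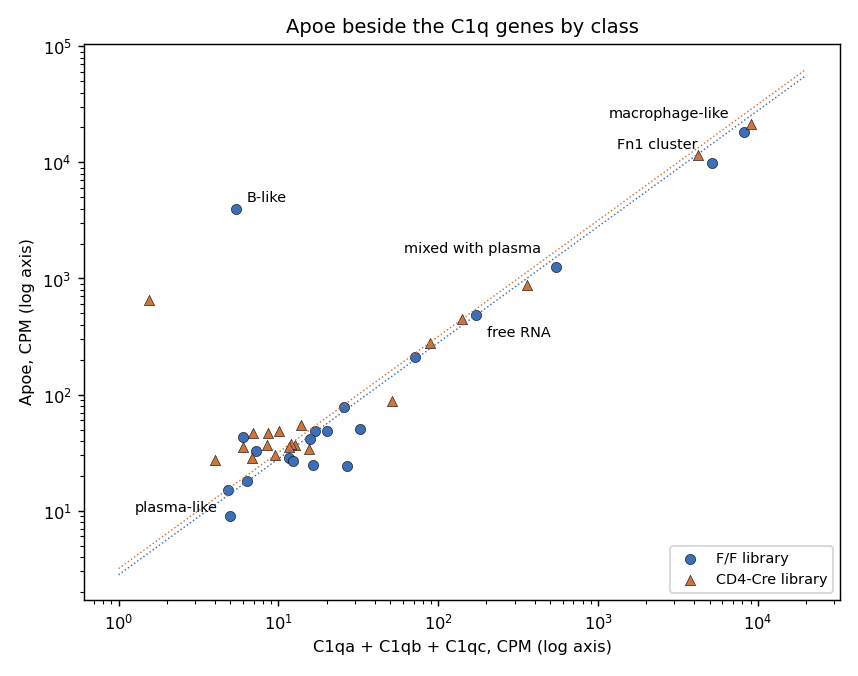
Apoe CPM against the summed CPM of C1qa, C1qb and C1qc, both on log axes, 1 point per class, cluster or free RNA pool with at least 5 UMIs of each in the F/F (circles) or CD4-Cre library (triangles). The dotted lines carry the ratio of free RNA in each library, 2.80 and 3.17, and the B-like points of both libraries lie far above them.

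B-like cells, 76 in F/F and 165 in CD4-Cre, were identified by Ms4a1, Pax5, Ebf1 and Cd79a and were too few in F/F for a comparison between libraries. They held 3626 Apoe UMIs in F/F (3944 CPM, 3817 to 4075) and 2082 in CD4-Cre (649 CPM, 622 to 678). The distribution within them was uneven. The median B-like cell held 4.5 and 5 Apoe UMIs and the highest 765 and 256, and the 5 highest cells held 64.4% and 35.2% of the total. After thinning to 1500 UMIs, 54.8% and 49.7% of B-like cells still had an Apoe UMI, against 2.68% and 2.83% of plasma-like cells, so the share of cells at equal depth was closer between the libraries than the summed level.

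Cells with at least 10 Apoe UMIs made up 24 of 76 B-like cells in F/F (31.6%) and 47 of 165 in CD4-Cre (28.5%), and they held 95.9% and 83.7% of the B-like Apoe UMIs. This is a range of a continuous measure; at 20 UMIs the numbers were 18 and 28. Of these cells, 21 of 24 and 41 of 47 had a UMI of Ms4a1, the CD20 gene of B cells, whereas C1q was seen in 3 and 1, Lyz2 in 0 and 4, and Msr1 in none. Most genes of the B cell list were nevertheless lower in them than in the remaining B-like cells, 8 of 10 in F/F and 6 of 10 in CD4-Cre. Cd79a and Cd79b were higher in the cells with at least 10 Apoe UMIs in both libraries. Cd79a stood at 2216 against 1027 CPM in F/F and 1572 against 702 in CD4-Cre. The summed B cell list was at 4392 against 4492 CPM in F/F and 4203 against 3158 in CD4-Cre. Ms4a1 stood at 274 against 573 CPM in F/F and 413 against 504 in CD4-Cre. Pax5, the B cell identity factor, stood at 117 against 272 CPM in F/F and 218 against 239 in CD4-Cre. It was seen in 11 of 24 against 39 of 52 and in 34 of 47 against 112 of 118 cells, shares not taken at equal depth. In summed CPM, all 10 genes of the plasma cell list were higher in the cells with at least 10 Apoe UMIs in both libraries. Median UMIs per cell, not scaled to depth, did not all follow. For Igha they were 65 against 53.5 in F/F but 66 against 77 in CD4-Cre. For Jchain they were 37.5 against 18.5 in F/F and 30 against 23.5 in CD4-Cre. Jchain, which joins IgA and IgM into polymers, stood at 22469 against 11980 CPM in F/F and 19967 against 8843 in CD4-Cre, with up to 2058 UMIs in the F/F cell of most Apoe. The part of plasma cell RNA in these values was not tested. The remaining B-like cells stood at 247 and 136 CPM of Apoe, 0.510 (0.430 to 0.6005) and 0.305 (0.273 to 0.340) of free RNA, but 1.18 (0.962 to 1.45) and 0.492 (0.425 to 0.569) of the barcodes of 10 to 100 UMIs. These cells were chosen for having fewer than 10 Apoe UMIs. The choice itself holds their level down, so these values cannot show whether they express Apoe. Apoc2 followed Apoe here as well: 58.6 CPM in cells with at least 10 Apoe UMIs against 6.72 CPM in the others in F/F, and 70.3 against 6.01 CPM in CD4-Cre, although 1 CD4-Cre cell held 38 of its 65 UMIs. Fcer2a, the low-affinity IgE receptor of mature follicular B cells, had a UMI in 0 of 24 cells with at least 10 Apoe UMIs (0 of 24 allows a share of cells with a UMI, not of cells expressing the gene, of up to 12.5%) and 16 of 52 others in F/F, and in 3 of 47 and 20 of 118 in CD4-Cre.

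Among 6505 genes compared between the same B-like cells, several other than Apoe and Apoc2 were higher beside it in both libraries, listed here after their values were seen and with no test, since the cells were split by Apoe. Prg2 was 6.39 and 6.41 times higher (F/F, then CD4-Cre, on CPM + 5), but rested on 5 and 15 cells. Prg2 was also among the leading genes of several plasma-like clusters, and the part of plasma cell RNA in its values was not tested. Cyp4f18, a cytochrome P450 that oxidises leukotriene B4, was 4.505 and 5.72 times higher and was seen in 18 of 24 and 32 of 47 cells. Abca1, which exports cholesterol to apolipoproteins, stood at 52.4 against 21.9 CPM in F/F and 28.1 against 5.21 CPM in CD4-Cre.

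**Figure D3:**
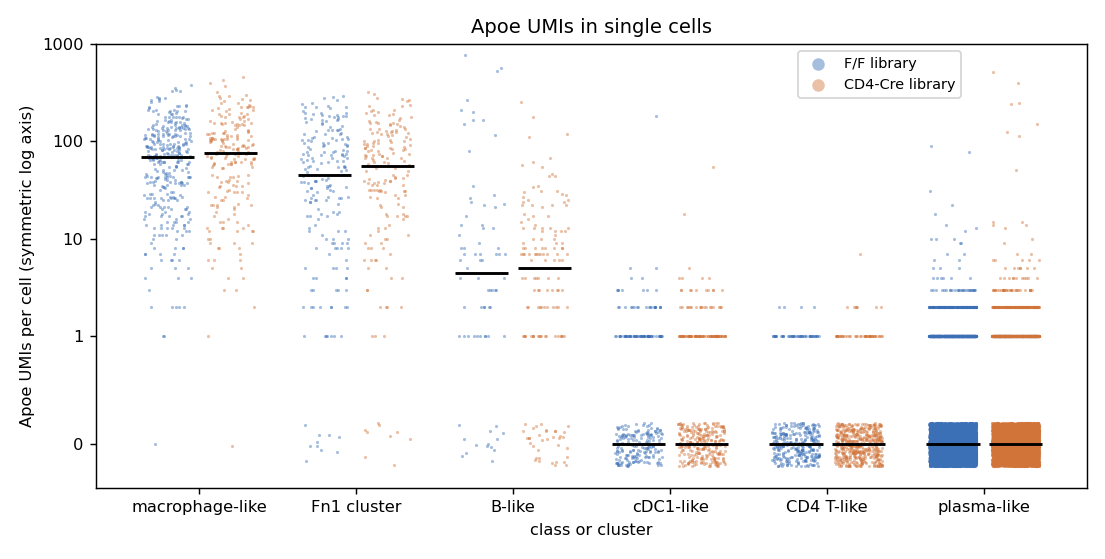
Apoe UMIs per cell (symmetric log axis; each dot is 1 cell, cells at 0 are spread for display, black bars are medians) in 6 classes of the F/F and CD4-Cre libraries. Nearly all macrophage-like cells lie well above 1 UMI, B-like cells run from 0 to 765, and most plasma-like, CD4 T-like and cDC1-like cells are at 0 or 1 with a few cells far above.

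Apoc2 was highest in the Fn1 cluster. It counted 128 UMIs in F/F (90.4 CPM, 75.4 to 107) and 166 in CD4-Cre (144 CPM, 123 to 168), in 74 of 204 and 79 of 179 cells. Macrophage-like cells held 97 and 52 UMIs, or 60.9 CPM (49.4 to 74.3) and 55.7 CPM (41.6 to 73.1). The order of the clusters was thus the reverse of that for Apoe. The intervals stay apart in both libraries, but in F/F only narrowly, at 74.3 against 75.4 CPM. Without the 5 highest cells of each library, 98 and 135 UMIs remained in the Fn1 cluster and 83 and 32 in macrophage-like cells. The F/F separation therefore leans on few cells. Free RNA held only 27 and 20 Apoc2 UMIs (1.84 and 1.45 CPM), and the 10 lymphocyte clusters held 0 UMIs in F/F and 2 in CD4-Cre.

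Lpl, the lipase that Apoc2 activates, was concentrated in few cells. The Fn1 cluster held 133 UMIs in F/F, in 26 of 204 cells, and 73 in CD4-Cre, in 29 of 179 cells (94.0 and 63.3 CPM). The 5 highest cells held 72.2% and 50.7% of them, with up to 37 and 14 UMIs in a cell. In F/F, the 8 cells of this cluster with a UMI of Lyve1, Folr2 or Cd163, markers of long-lived tissue macrophages, held 67 of the 133. In CD4-Cre, the 3 such cells held 0 of the 73. Macrophage-like cells held 31 and 20 UMIs in 17 and 10 cells. B-like cells held none in either library, which allows up to 3.26 and 0.935 CPM at a limit of 3 counts, and cDC1-like cells (277 and 375), the dendritic cells marked by Xcr1 and Clec9a, held none either, which allows up to 0.711 and 0.576 CPM.

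The receptors divided the myeloid cells differently. Msr1 was highest in macrophage-like cells, with 237 UMIs in F/F (149 CPM, 130.5 to 169) and 136 in CD4-Cre (146 CPM, 122 to 172), against 94.7 CPM (79.3 to 112) and 109 CPM (91.1 to 130.2) in the Fn1 cluster. In CD4-Cre these intervals overlapped. Thinned to 1500 UMIs, 21.1% and 21.0% of macrophage-like cells had an Msr1 UMI. Outside these clusters Msr1 was rare, with 0 UMIs in B-like cells and 0 and 4 in cDC1-like cells. It stood at 8.14 and 7.27 CPM in a pool of clusters that mixed plasma cell genes with those of other cells.

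Lrp1 did not separate the same clusters: 72.3 CPM (59.7 to 86.7) and 75.0 CPM (58.5 to 94.8) in macrophage-like cells, and 86.2 CPM (71.6 to 103) and 102 CPM (84.0 to 122) in the Fn1 cluster. Its highest CPM was in the stromal-like cells, of which the libraries held 3 and 13, with 17 and 33 UMIs (840.1 and 508 CPM). A cluster led by Ccl22, Ccl17 and Ccr7, genes of dendritic cells on their way to lymph nodes (73 and 115 cells), held 10.2 and 11.7 CPM. Of the 13 CD4-Cre stromal-like cells, 10 also held Apoe, 89 UMIs in all, and the 3 F/F cells held none.

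Scarb1 was present in dendritic cells as well as in the macrophage-like and Fn1 clusters. cDC1-like cells held 124 and 171 UMIs (29.4 and 32.8 CPM, 19.6 and 16.2 times free RNA), and the Ccl22 cluster held 20.3 and 16.0 CPM. Macrophage-like cells held 86 and 39 UMIs (54.0 CPM, 43.2 to 66.7, and 41.8 CPM, 29.7 to 57.1), and the Fn1 cluster 62 and 68 (43.8 CPM, 33.6 to 56.2, and 59.0 CPM, 45.8 to 74.8). The order of those clusters differed between the libraries, within overlapping intervals. Plasma-like cells held 0.703 and 0.566 CPM, below the free RNA level of 1.499 and 2.03 CPM.

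Vldlr and the chylomicron genes gave too few UMIs for any comparison of myeloid cells. Vldlr counted 4 and 7 UMIs, 2 and 1 of them in stromal-like cells. Apoa4 counted 3 UMIs in 2 cDC1-like cells of F/F and 0 in CD4-Cre cells, and Apob 1 UMI in each library. Apoa1 was spread thinly: 42 UMIs over 40 of 8204 plasma-like cells in F/F and 45 over 45 of 7315 in CD4-Cre, or 0.273 and 0.331 CPM. Free RNA held 5 and 3 Apoa1 UMIs, 0.341 and 0.217 CPM, so the plasma-like level was 0.802 (0.318 to 2.60) and 1.52 (0.489 to 7.66) times that of free RNA and could not be told apart from it. Apoa1 made up 83.3% and 75% of the Apoa1, Apoa4 and Apob UMIs in free RNA, on only 6 and 4 UMIs. Other enterocyte genes were as rare: Fabp1 counted 26 and 10 UMIs over all kept cells, Fabp2 33 and 21, Rbp2 23 and 35, and Apoc3 2 and 0.

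Between the libraries, Apoe was higher in the macrophage-like cells of CD4-Cre, by less than 1.5-fold, and the intervals of the other genes included 1. Of the 10, 6 had the 50 UMIs required for a ratio, and none reached 1.5-fold in either direction, where 9.91% of 6017 genes did, a share at which none of 6 is no result about these genes. Apoe was 1.19 times higher in CD4-Cre (1.17 to 1.21). Lrp1 stood at 1.04 (0.760 to 1.41), Msr1 at 0.979 (0.787 to 1.21), Apoc2 at 0.914 (0.640 to 1.29), Lpl at 1.10 (0.594 to 1.99) and Scarb1 at 0.773 (0.516 to 1.14). Those of Lpl and Scarb1 are wide and reach past 1.5-fold. Only for Apoe did counting error exclude equality, and that gene had 28898 and 20159 UMIs. Without the 5 highest cells of each library Scarb1 fell to 0.662, past the limit.

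Several other RNAs differed between the same cells. Of the 12 macrophage markers, 9 were higher in CD4-Cre, and their sum was 16698 and 18531 CPM. The pancreatic acinar list summed to 1077 CPM in F/F and 10.7 in CD4-Cre, with 8 of its 12 genes at 0 in the latter, and the gastric list to 27.0 and 270.01 CPM, with Muc5ac and Pgc at 0 in both. The plasma cell list summed to 34454 and 33898 CPM. Their part in the Apoe ratio was not tested. In free RNA, Apoe in CD4-Cre was at 0.919 of the F/F level (0.888 to 0.951), but at 1.32 (1.13 to 1.54) in the barcodes of 10 to 100 UMIs, so its direction depends on the barcodes chosen.

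Within macrophage-like cells, 97 in F/F and 45 in CD4-Cre had a UMI of Lyve1, Folr2 or Cd163. Apoe was at 19169 and 26235 CPM in them, and at 17755 and 20387 CPM in the other 254 and 165 cells, so it was higher in CD4-Cre on both sides, 1.37 (1.32 to 1.42) and 1.15 (1.12 to 1.17) times. The ratio of marked over other cells was 1.08 in F/F and 1.29 in CD4-Cre. Scarb1 was lower in the marked cells of both libraries, 0.578 (0.313 to 1.01) and 0.207 (0.0241 to 0.801) of the others, on 16 and 2 UMIs. Msr1 was at 1.17 (0.878 to 1.55) and 1.43 (0.951 to 2.10), with intervals that include 1.

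In the Fn1 cluster, 1 of 6 genes passed 1.5-fold, against 10.3% of 5676 genes in either direction and 4.72% upward. That gene was Apoc2, 1.59 times higher in CD4-Cre (1.26 to 2.02), and 1.69 times (1.29 to 2.21) without the 5 highest cells of each library. At 1500 UMIs per cell, the share of the cluster with an Apoc2 UMI was 11.1% (F/F) and 19.0% (CD4-Cre). Apoe stood at 1.18 (1.15 to 1.20), as in macrophage-like cells, Lrp1 at 1.18 (0.906 to 1.53), Msr1 at 1.15 (0.898 to 1.48) and Scarb1 at 1.35 (0.941 to 1.93). Lpl stood at 0.674 (0.4996 to 0.904), but at 1.18 (0.726 to 1.92) without the 5 highest cells, so a handful of F/F cells set its direction. In this cluster 7 of 10 monocyte markers were higher in CD4-Cre, and the pancreatic list was at 824 and 1.74 CPM; their part was not tested.

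**Figure D4:**
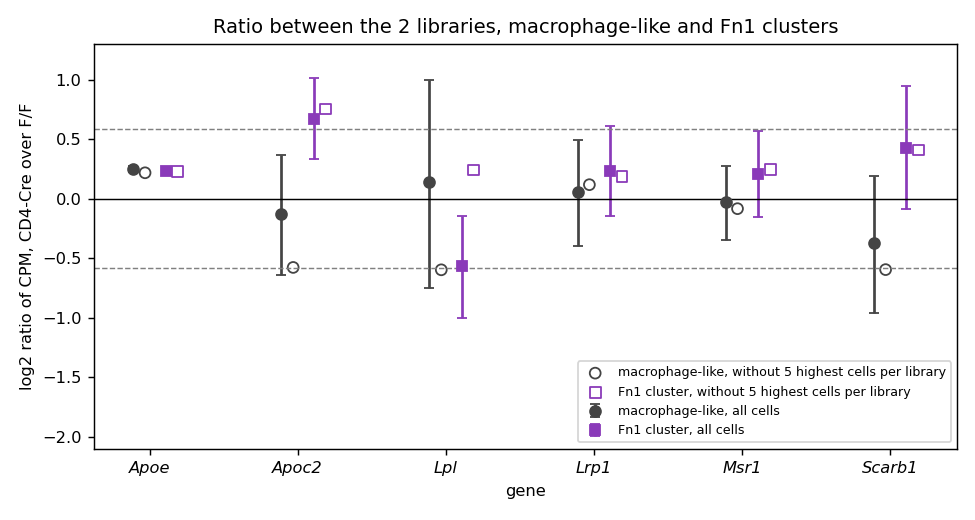
Log2 ratio of CPM, CD4-Cre over F/F, for the 6 genes with at least 50 UMIs in macrophage-like cells (circles) and the Fn1 cluster (squares); filled symbols are all cells with 95% counting intervals, open symbols leave out the 5 cells with the most UMIs of the gene in each library. Dashed lines mark 1.5-fold, which Apoc2 in the Fn1 cluster passes with and without those cells, while Lpl there changes side.

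In the other classes several calls rested on a few cells. Of 4 genes with enough UMIs in plasma-like cells, 2 passed 1.5-fold, both higher in CD4-Cre, against 6.62% of 13695 genes (3.02% upward). Apoe was at 1.82 (1.72 to 1.91) and at 1.18 (1.11 to 1.26) without the 5 highest cells of each library, which in CD4-Cre held 510, 399, 246, 241 and 150 UMIs. Apoc2 was at 12.1 (7.53 to 20.5), but 1 CD4-Cre cell held 186 of its 203 UMIs together with 510 Apoe UMIs and 0 C1q UMIs, and the ratio without the 5 highest cells was 1.04 (0.435 to 2.48). In cDC1-like cells 1 of 2 genes passed, against 5.21% of 8428 genes (2.88% downward): Apoe at 0.602 (0.508 to 0.713), which became 0.999 (0.785 to 1.27) without the 5 highest cells. A single F/F cell held 183 of the 327 UMIs. Scarb1 in the same cells was at 1.12 (0.881 to 1.42).

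Several clusters that mixed plasma and other genes were pooled (290 and 270 cells). This pool held 1257 and 884 CPM of Apoe, a ratio of 0.704 (0.680 to 0.729). Without the 5 highest cells the ratio was 0.612 (0.588 to 0.637), past the limit. All 12 macrophage markers were also higher there in F/F, 1463 against 1035 CPM in sum, and the C1q genes stood at 542 and 357 CPM. The only cluster of the pool with all 12 macrophage markers held 131 F/F against 75 CD4-Cre cells. The part of these differences in the Apoe ratio was not tested. Lpl was the 1 of 6 genes past 1.5-fold there, at 0.419 (0.264 to 0.651), or 0.434 (0.0976 to 1.55) without the 5 highest cells, against 8.94% of 9452 genes (6.44% downward). A cluster with plasma and T cell genes (379 and 555 cells) held 18.0 and 35.5 CPM of Apoe, its only gene with enough UMIs, at 1.97 (1.62 to 2.42), and 2.48 (1.95 to 3.17) without the 5 highest cells, against 6.33% of 9143 genes (2.64% upward). Both of its levels are far below free RNA. The macrophage list moved with it, at 18.4 and 33.4 CPM with 4 of 4 measured genes higher in CD4-Cre, and so did the C1q genes, at 6.39 and 11.6 CPM; their part was not tested. A T cell cluster led by Gzma and Cd200r2 had Apoe at 0.623 (0.391 to 0.983), and at 0.959 without the 5 highest cells, where 10.5% of 5256 genes passed (2.63% downward). In CD4 T-like cells Apoe, the 1 gene with enough UMIs, did not pass, where 8.02% of 5987 genes did, nor in CD8 T-like cells, where 14.7% of 4884 did. It did not pass in the T cell clusters led by Il4 and Zbtb16, Klra7 and Klra1, or Nckap5 and Tnfrsf4, where 6.93%, 7.83% and 8.97% of genes did.

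Cells with an Apoc2 UMI were richer in Apoe. In macrophage-like cells Apoe was 1.32 times higher in cells with an Apoc2 UMI than in cells without one in F/F (1.29 to 1.35; 70 of 351 cells) and 1.45 times in CD4-Cre (1.40 to 1.49; 34 of 210 cells). In the Fn1 cluster it was 1.90 (1.84 to 1.96) and 1.69 times (1.63 to 1.75). The order was the same in both libraries and both clusters. Cells with an Apoc2 UMI were also deeper, with medians of 6168 against 3922 UMIs in F/F macrophage-like cells, and the part of depth was not tested. Cells with an Lpl UMI went the other way in the Fn1 cluster, with 0.569 (0.537 to 0.603) and 0.846 (0.809 to 0.885) of the summed Apoe level of cells without. Averaged over cells, Apoe was at 6677 against 9856 CPM in F/F and 10736 against 11278 CPM in CD4-Cre. The standard deviations over cells were 6950 and 8339 CPM in F/F, and 10634 and 8805 CPM in CD4-Cre. The counting intervals leave out this spread, beside which the CD4-Cre difference is small. Msr1 and Lrp1 gave 1.06 to 1.27 in both clusters and libraries.

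**Figure D5:**
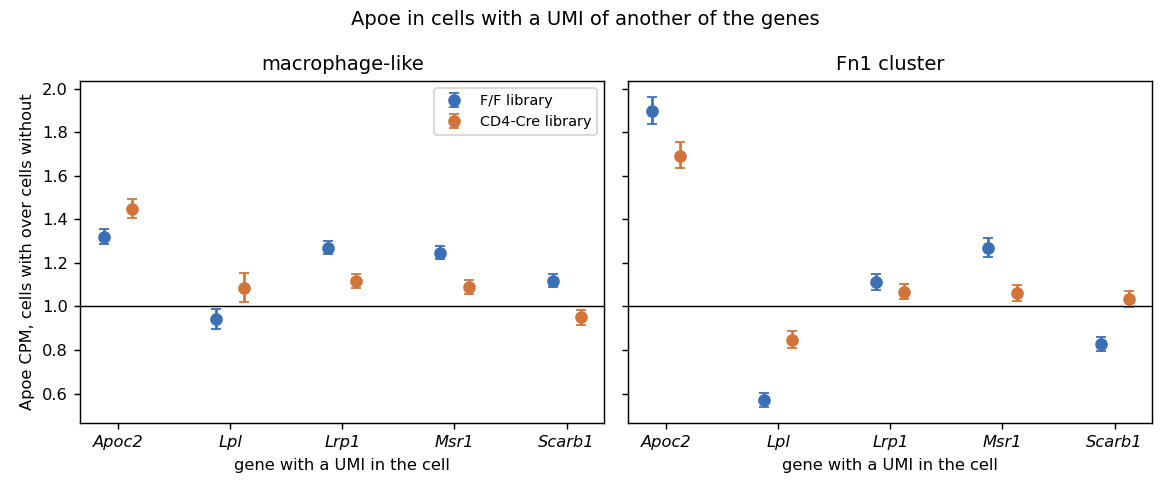
Apoe CPM of cells with a UMI of the gene on the x axis over that of cells without one, with 95% counting intervals, in macrophage-like cells (left) and the Fn1 cluster (right) of the F/F and CD4-Cre libraries. Apoc2 gives the highest value in all 4 cases, from 1.32 to 1.90, and Lpl in the Fn1 cluster lies below 1 in both libraries. The intervals leave out the spread between cells.

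Within the Fn1 cluster, 55 F/F and 49 CD4-Cre cells had no UMI of C1qa, C1qb or C1qc. They held less Apoe than the others, 7347 against 10703 CPM in F/F and 7743 against 13032 CPM in CD4-Cre. Apoc2 did not fall with it, at 1.18 (0.774 to 1.75) and 1.69 (1.21 to 2.33) times the level of the cells with C1q. Lrp1 was 2.32 (1.59 to 3.37) and 1.38 (0.913 to 2.05) times higher in the cells without C1q. The cells without C1q were shallower, with medians of 5676 against 7323 UMIs in F/F and 6338 against 6723 in CD4-Cre.

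The rest of the pathway was examined through 5 lists. In macrophage-like cells none of the members with enough UMIs passed 1.5-fold: 0 of 1 other apolipoproteins and carriers, 0 of 3 lipases and regulators, 0 of 7 lipoprotein receptors and adaptors, 0 of 6 scavenger receptors and 0 of 6 genes of cholesterol export and lysosomal exit. Over all genes of the class 9.91% of 6017 passed, so these counts are no result about the lists. Their median log2 ratios were -0.09, 0.09, -0.14, 0.07 and 0.11, beside -0.00300 over all genes of the class. Mrc1, the mannose receptor, stood at 854 and 804 CPM, Npc2, a lysosomal cholesterol carrier, at 814 and 813 CPM, and Abca1 at 297 and 326 CPM. Stab1, another scavenger receptor, stood at 276 and 205 CPM, a ratio of 0.740 (0.621 to 0.879). Cd36 stood at 254 and 267 CPM, Lrp6 at 208 and 213, Sorl1 at 195 and 171, Lipa, the lysosomal acid lipase, at 156 and 166, Soat1, which esterifies cholesterol, at 163 and 175, and Pltp, the phospholipid transfer protein, at 202 and 190.

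Pnpla2 stood at 32.7 and 42.9 CPM and Lipe at 30.2 and 20.4 CPM, the lipases of stored fat. The neighbours of Apoe and Apoc2 in the gene cluster were scarce, with 15 and 9 UMIs of Apoc4 and 2 and 6 of Apoc1. In the Fn1 cluster 1 of 24 list members with enough UMIs passed, against 10.3% of all genes, so the count is no result about the lists. It was Saa3, an acute-phase apolipoprotein, with 45 and 5 UMIs (31.8 and 4.34 CPM), of which 2 and 0 remained without the 5 highest cells. Pltp was at 162 and 114 CPM there, a ratio of 0.703 (0.562 to 0.875).

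The genes most like each member were sought among 11078 genes over 11 named classes in both libraries, 22 points that share library and depth within a library. For Apoe they were Inpp5f (Pearson's r = 0.878 of log2(CPM + 1)), Apobec1, whose enzyme edits Apob mRNA (0.854), and Ldlrad3 (0.848). For Apoc2 they were Snx8 (0.9147), Bank1, a B cell scaffold (0.914), and Tlr7 (0.907). Msr1 ran closest with Mmp13 (0.994), Cd163 (0.993) and Clec4b1 (0.990), Lrp1 with Mmp14 (0.960), Ctsl (0.941) and Adamdec1 (0.933), and Scarb1 with Cd80 (0.899), Gatm (0.896) and Cd86 (0.896). The named classes leave out the Fn1 cluster, where Apoc2 was highest, and the other unnamed clusters. The stromal-like class, with 3 and 13 cells, counted as much as any other. Msr1 stood at 149 and 146 CPM in macrophage-like cells and at no more than 0.767 CPM in the other named classes. Its correlations are therefore set by the macrophage-like points.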

How the data were processed

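Droplet RNA-seq (10x Genomics 3′ kit) was done on sorted small intestine lamina propria cells, 1 pooled library per genotype. The deposited files hold raw UMI counts per gene and barcode, unfiltered; per the submitters' processing notes, Cell Ranger 7.2.0, Seurat 5.0.1 and the builds mm10 and GRCm38 were used, and the authors' cell filtering and annotation were not used here. The 10 genes and all lists were chosen with earlier results of these data known.

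A barcode counted as a cell from 1000 UMIs and 500 genes upward if mitochondrial transcripts made up no more than 10% of its UMIs. No doublet caller was run and free RNA was not subtracted. Cells were clustered in 2 rounds over both libraries (scanpy 1.11.5, igraph 0.11.9; 30 principal components of 2000 variable genes, 15 neighbours, Leiden at resolution 1 with seed 1); the 10 genes, the pathway lists, Gramd1a and the genes of immunoglobulins, T cell receptors, mitochondria and ribosomes could not be variable genes. Of 31 clusters, those with at least 3 detected markers of a class and none of another class leading were named, 11 classes in all. UMIs were summed per class and library and divided by the class total (CPM). Intervals (95%) are exact Poisson for CPM, exact Clopper-Pearson for shares and from the exact binomial split of UMIs for ratios (Python 3.11.15, numpy 2.4.6, scipy 1.17.1, pandas 2.3.3); they take each UMI as independent, which fails where few cells hold most of them. A count of 0 allows 3 counts. Ratios needed 100 cells in both libraries and 50 UMIs over both; 1.5-fold is a limit of size, not a test. Ratio intervals were tested on simulated data. Shares at equal depth came from thinning each cell to 1500 UMIs, leaving out shallower cells (34 F/F and 29 CD4-Cre macrophage-like cells). Named were all 10 genes, for each with at least 500 UMIs the 3 genes of highest correlation, and of each pathway list up to 3 genes of highest macrophage-like CPM, of which 1 is not reported here. Other genes in the text, among them those of the B-like split, Saa3 and Fcer2a, were chosen after their values were seen. Positions are from GENCODE M21 (GRCm38), promoters from RefSeq (GRCm38.p6). Alternatives covered UMI and mitochondrial limits, clustering resolution, immunoglobulin content, thinning depth, fold limit, the free RNA range and the highest cells. Figures were drawn with matplotlib 3.10.9.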

Additional observations from a re-analysis of the deposited data

Results flagged for a closer look

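Some barcodes outside the kept cells carried more of some transcripts than a count of 0 would allow. Apoe stood at 511 CPM in F/F barcodes above 350 and under 1000 UMIs (939 UMIs) and at 572 CPM in CD4-Cre ones (653 UMIs), close above the free RNA level of 485 and 445 CPM. In barcodes over 1000 UMIs that were refused as cells, 1249 in F/F and 1118 in CD4-Cre, Apoe stood at 153 and 149 CPM, below free RNA. Msr1 was at 4.36 CPM in the F/F barcodes above 350 and under 1000 UMIs, on 8 UMIs. Scarb1 was at 4.77 and 4.40 CPM in the refused barcodes of F/F and CD4-Cre, on 12 and 10 UMIs.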

How the results depend on the processing

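No paired analysis was possible because each genotype is 1 pooled library. Of 707 values of 152 results under an alternative, 551 stayed within their counting interval (counts: within 1.5 times), 153 moved further and 3 turned a ratio that had passed 1.5-fold to the other side of 1. One is Apoe over free RNA in F/F B-like cells under 10 Apoe UMIs, 0.510, which became 1.18 against barcodes of 10 to 100 UMIs. The other two are the Apoe ratio in cDC1-like cells, 0.602 in all cells, which became 1.24 at no more than 5% mitochondrial UMIs and 1.35 without cells over 10% immunoglobulin UMIs. Ratios that had not passed also crossed 1: over all, 20 of 266 alternatives of the 31 library ratios lay on the other side, in 10 ratios. In macrophage-like cells these were Msr1 (5 of 12), Lpl (3), Apoc2 (2), Lrp1 (2) and Scarb1 (1), so no direction is given for these genes there. In the Fn1 cluster it was Lpl (1 of 7), at 1.18 without the 5 highest cells. Apoe in macrophage-like cells ranged with the cells and the total chosen: 19709.7 and 23456 CPM (F/F, then CD4-Cre) at 2000 UMIs or more, 18673 and 22083 at no more than 5% mitochondrial UMIs, 14265 and 16052 at resolution 0.5, 18837 and 22396 with immunoglobulin genes out of the total, and 17506.5 and 20364.5 without the 5 highest cells. Its ratio between the libraries was 1.13 at resolution 0.5, 1.16 without the 5 highest cells, and 1.37 and 1.15 in cells with and without Lyve1, Folr2 or Cd163, above 1 in all 12 alternatives. Other macrophage-like ratios moved more: Apoc2 to 1.39 at resolution 0.5 and 1.61 in cells with those 3 genes, Lpl to 2.33 with the 10 genes among the variable genes and 0.499 in cells with those 3 genes, and Scarb1 to 0.291 there. The count of genes past the limit became 1 in macrophage-like cells without the 5 highest cells. In the Fn1 cluster it became 2 at no more than 5% mitochondrial UMIs, 2 at resolution 2 and 0 at 2-fold. Over all classes it was 2 instead of 7 of the 31 ratios at 2-fold. The share over all genes was not taken under these alternatives, so the counts are no result about these genes. Apoc2 in the Fn1 cluster ranged from 1.58 to 1.69 over 7 alternatives. That cluster had no cells at resolution 0.5. Against barcodes of 10 to 100 UMIs, Apoe in macrophage-like cells was 86.8 and 78.2 times free RNA, and the share of Apoa1 among Apoa1, Apoa4 and Apob in F/F free RNA was 100%. Removing cells whose barcode is shared by both libraries, chosen after seeing the data, moved 0 of 74 values. The Apoe per C1q values without the highest cells and the free RNA comparisons of lymphocytes, B-like cells and the libraries with barcodes of 10 to 100 UMIs were likewise added after seeing the data. The cause was not tested for any of these. Depth limits Apoa4, Apob and Vldlr to a few UMIs per library, and one pool per genotype leaves the variation between mice unknown.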
